A study of Mus musculus with 16 samples.

Results

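The genes described here are 8 neuropeptide and neuro-immune receptor genes of mouse CD4+ T cells: Calca, Gal and Penk, which encode peptide precursors, and Ramp1, Ramp3, Nmur1, Vipr1 and Vipr2, which encode receptors or receptor partners. They were chosen by name, with earlier results of these same data in view, from the 31053 genes counted in the first single-cell run and the 32285 genes counted in the second. Their levels per library, organ and sort gate, and the fold changes between lung and mesenteric lymph node (MLN), are therefore given as a description without a test. For these 8 genes, tests are given only for contrasts that the choice did not use. Of the 8 genes, 7 or 8 had at least 1 unique molecular identifier (UMI, the count of 1 captured RNA molecule) in each lung and each IL-4eGFP+ sample, and 5 or 6 in each IL-4eGFP- node sample.

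All cells came from female IL-4eGFP reporter mice (4get mice, strain label 4get/C57BL/6), in which cells that transcribe the Il4 locus become green, including cells at an early stage of type 2 helper (Th2) differentiation. All mice had received 500 third-stage larvae of the hookworm-like nematode Nippostrongylus brasiliensis under the skin 10 days earlier and antibiotics in the drinking water, and no uninfected mouse was analysed here. In the first run, CD4+IL-4eGFP+ cells were sorted from the perfused and enzymatically digested lung and from the undigested MLN of 2 mice aged 13 weeks, and their gene expression and T-cell receptor (TCR) libraries were made from the 5′ ends of transcripts. In the second run, cells of the mediastinal lymph node (medLN), which drains the lung, and of the MLN of 2 other mice aged 10 weeks were marked with 1 hashtag antibody per organ and mouse and sorted into 1 IL-4eGFP+ and 1 IL-4eGFP- library. The gate and the library cannot be told apart in the second run, nor can run, age and the TCR criterion between the runs. In the first run, enzyme digestion and percoll purification were applied to lung cells, so organ and tissue preparation cannot be told apart either, and perfused lungs still hold some blood cells.

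After the filters, 1082 and 416 lung cells and 2462 and 754 MLN cells with both TCR chains were used, together with 1992 to 2249 cells in each of the 8 hashtag samples. A lung cell had a median of 6910 UMIs in mouse 1 and 5765.5 in mouse 2, an MLN cell 4980 and 4971, and a hashtag sample 3165.5 to 3666.5. Levels are given in CPM, the usual unit of counts corrected for library size. They are the UMIs of a gene summed over the cells of a sample and scaled to those of all genes except TCR genes. Intervals cover counting error only. T cell genes (Cd3e, Cd3d, Cd3g, Cd4 and Lck) summed to 3717 to 5237 CPM in all 12 samples. Genes of Th2 cells (Il4, Gata3, Stat6, Il1rl1 and Maf) summed to 2067 and 1785 CPM in lung, 940 and 951 CPM in MLN, 613 to 657 CPM in the IL-4eGFP+ nodes and 107 to 137 CPM in the IL-4eGFP- nodes. Between 0 and 147 barcodes were shared by any pair of libraries.

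Neuropeptides are small secreted peptides cut from larger precursors, best known as messengers of neurons. Calcitonin gene-related peptide (CGRP), the neuromedins and vasoactive intestinal peptide (VIP) are released by nerves in the lung and gut, where immune cells carry their receptors, most of which act through G proteins and change the level of cyclic AMP (cAMP) or calcium in the cell. Immune cells can make some of these peptides themselves. The CGRP receptor is a pair of the receptor protein Calcrl with the membrane partner Ramp1, while Calcrl with Ramp2 or Ramp3 preferentially binds the related peptide adrenomedullin.

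Calca (chromosome 7, 114631478 to 114636357, minus strand, mm10) encodes calcitonin and, by alternative splicing, CGRP. It was counted at 313 CPM in lung mouse 1 and 137 CPM in lung mouse 2, against 0.138 and 0 CPM in the MLN of the same mice. In UMIs these were 2657 and 381 in lung, 2 in the MLN of mouse 1 and 0 in that of mouse 2. Both lung samples thus stood far above every other sample, with no overlap. The ratio of lung to MLN was 2261 in mouse 1 (95% counting interval 625 to 18681, with 2 UMIs below the line), and lung was at least 203-fold higher in mouse 2, computed against a floor of 3 counts per library. The fitted log2 fold change was 11.03 ± 0.72 (SE, n = 2 per organ). Counts from 5′ ends do not tell the calcitonin transcript from the CGRP transcript. In the second run, the IL-4eGFP+ medLN 1, medLN 2, MLN 1 and MLN 2 samples held 6, 6, 0 and 11 UMIs of Calca. These sat in 2, 3, 0 and 3 cells. None was counted in the 4 IL-4eGFP- samples, where a floor of 3 counts corresponds to 0.373 to 0.399 CPM.

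**Figure D1:**
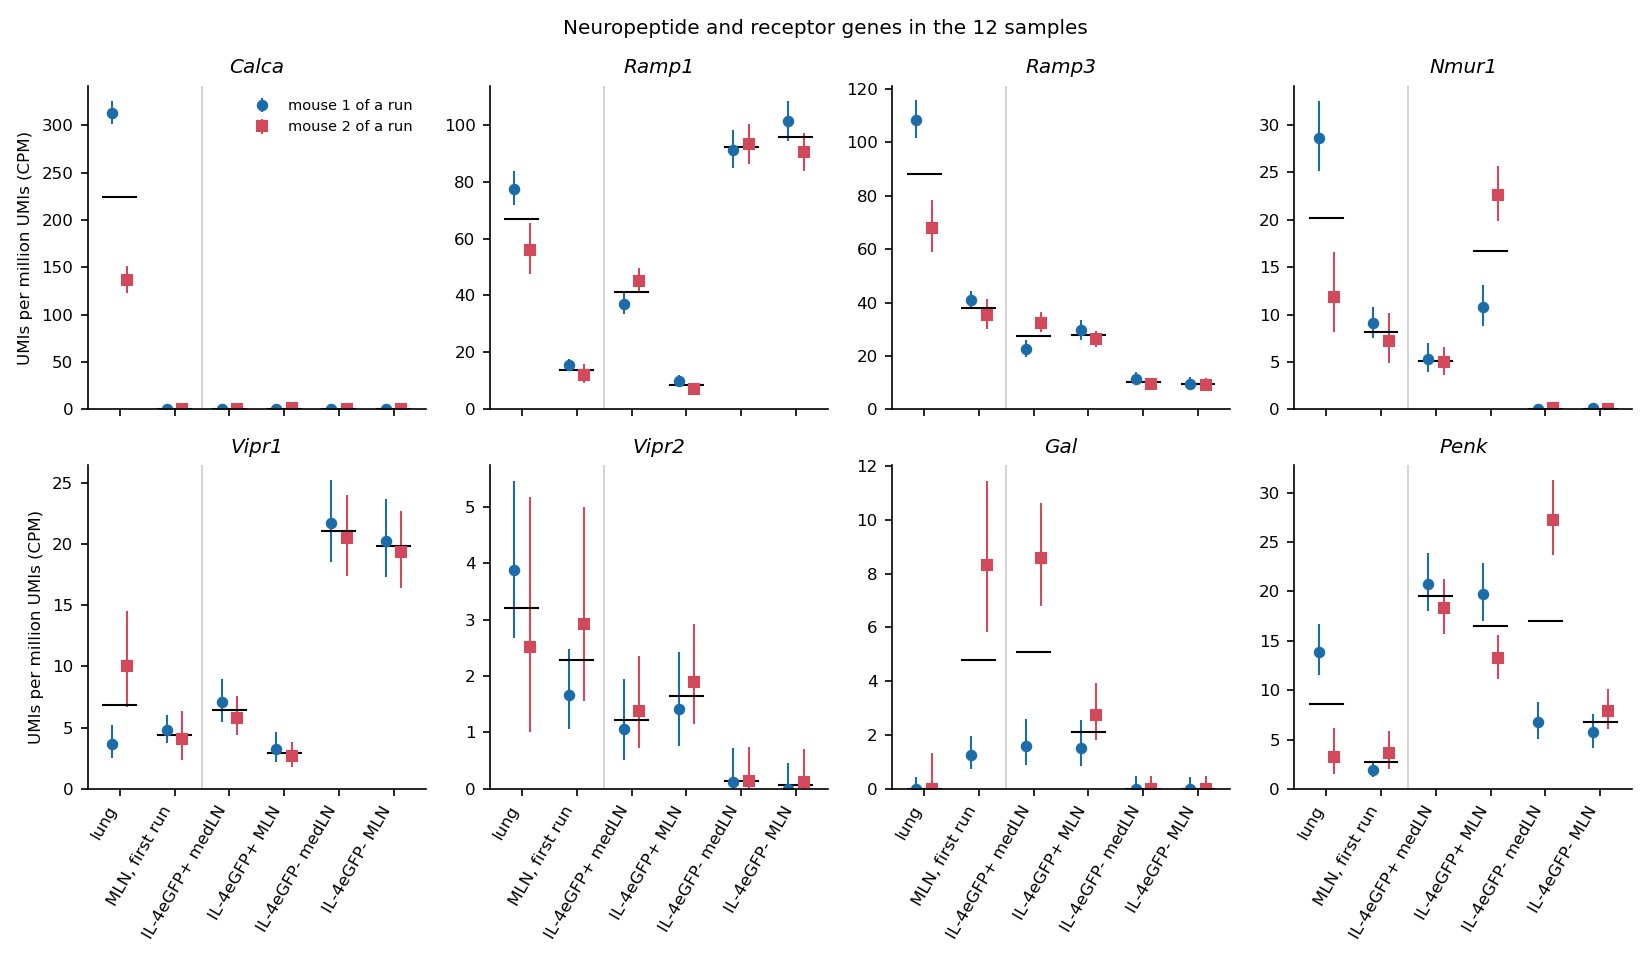
Level of each of the 8 genes (CPM, own axis per panel, with exact 95% Poisson intervals) in lung and MLN of the first run and in the IL-4eGFP+ and IL-4eGFP- medLN and MLN of the second run, split by the grey line. Circles are mouse 1 and squares mouse 2 of a run, and the black lines are group means; Calca stood at 313 and 137 CPM in lung and at most 1.04 CPM elsewhere, while Ramp1 and Vipr1 were highest in the IL-4eGFP- nodes.

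The stretch directly upstream of the Calca gene start is shown because Calca had the widest range of levels, and that of Gal because its UMIs sat in few cells. Both are 250 bases ending at the base before the annotated start, from RefSeq (GRCm38.p6), written 5′ to 3′ on the strand of the gene. Calca covers chr7:114636358-114636607 (minus strand) and Gal chr19:3414545-3414794 (minus strand). Capitals mark TGACG, the core of a cAMP response element, and GGAAA, the core bound by NFAT, a factor of TCR signaling, each searched on both strands.
Calca: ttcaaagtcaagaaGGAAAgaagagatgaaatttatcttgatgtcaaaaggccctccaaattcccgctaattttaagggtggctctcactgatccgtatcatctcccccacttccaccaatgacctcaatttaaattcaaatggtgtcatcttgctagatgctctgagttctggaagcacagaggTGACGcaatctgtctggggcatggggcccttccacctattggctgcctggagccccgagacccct
Gal: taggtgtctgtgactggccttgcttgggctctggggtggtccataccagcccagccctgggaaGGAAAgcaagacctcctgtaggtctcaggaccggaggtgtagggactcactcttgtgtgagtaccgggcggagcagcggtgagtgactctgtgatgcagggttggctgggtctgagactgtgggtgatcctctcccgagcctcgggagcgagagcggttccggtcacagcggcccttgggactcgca

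The first base of TGACG lay 65 bases before the start in Calca. Of the 7 genes with an entry, all but Penk, TGACG was found in 2, Calca and Vipr1, and it was found in 17.8% of all 32851 RefSeq promoter windows of this length. The full element TGACGTCA, which contains TGACG, was in none of these genes and in 1.55% of all windows, and the AP-1 motif TGANTCA in none and in 6.75%. GGAAA occurred in 55.6% of all windows. A match is a description of the letters and says nothing about binding.

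Within the lung, Calca was found in a minority of cells with very unequal amounts. At least 1 UMI was counted in 275 of 1082 lung cells of mouse 1 (25.4%, exact 95% interval 22.8 to 28.1%) and in 73 of 416 of mouse 2 (17.5%, 14.0 to 21.6%). After each cell was thinned to 2000 UMIs, leaving out the 14 and 8 shallower cells, the shares were 18.0% and 9.56%. The more deeply counted lung sample of mouse 1 held the larger share, also at equal depth. A Calca-positive cell held a median of 6 UMIs and at most 127 in mouse 1, and a median of 2 and at most 49 in mouse 2. The 90 cells with 10 or more UMIs in mouse 1 held 73.8% of its Calca UMIs, and the 11 such cells in mouse 2 held 54.6%. Conversely, 44 positive cells (16%) of mouse 1 and 27 (37.0%) of mouse 2 held a single UMI.

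**Figure D2:**
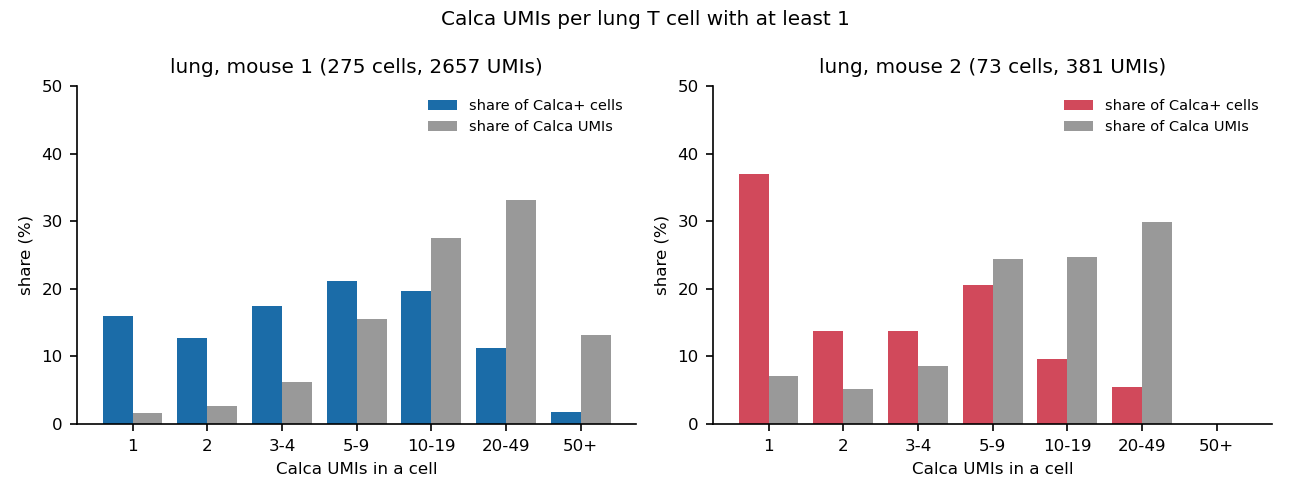
Calca-positive lung cells by their number of Calca UMIs (x axis, UMIs per cell in bins) for mouse 1 and mouse 2, as a percentage of the positive cells and as a percentage of the Calca UMIs. Cells with 10 or more UMIs were 32.7% of the positive cells of mouse 1 and 15.1% of those of mouse 2, yet held 73.8% and 54.6% of the UMIs.

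Free RNA in a droplet can give a cell UMIs of a gene that it does not express, which lung cells of another type let one gauge only in part. Basophil-like lung cells were those without a full TCR, with at least 3 UMIs of basophil and mast cell genes and none of Cd3e, Cd3d and Cd3g. Asking for no Cd3 UMI also leaves out droplets that took up free T cell RNA, so their shares can understate free RNA. Among 71 such cells, 1 held a Calca UMI (1.41%, exact 95% interval 0.0357 to 7.60%), against 348 of 1498 TCR-bearing lung cells (23.2%). The median was 4223 and 6583 UMIs per cell. None of the other 7 genes was counted in a basophil-like cell, with an exact upper limit of 5.06%. Genes of pulmonary neuroendocrine cells, a known airway source of CGRP, summed to 0.453 CPM in Calca-positive and 1.27 CPM in Calca-negative cells of mouse 1 and to 0 and 2.63 CPM in mouse 2. Of these 8 genes 1 was detected in Calca-positive cells of mouse 1 and 0 in those of mouse 2, and Chga, Chgb and Resp18 were at 0 in all 4 sums. The T cell genes stood at 3984 and 3864 CPM in Calca-positive and Calca-negative cells of mouse 1, and at 3775 and 3796 CPM in mouse 2.

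Calca-positive and Calca-negative cells were next compared within each lung by edgeR's quasi-likelihood test on UMIs summed per mouse, with 275 and 73 cells against 807 and 343. Apart from Calca, which defines the arms, 31 genes passed (15 higher and 16 lower), and with Calca this was 0.352% of the 9086 genes tested (0.176% in each direction). Ccr7, the receptor that leads T cells to lymph nodes, was counted at 13.6 and 5.95 CPM in Calca-positive against 97.3 and 109 CPM in Calca-negative cells (log2 fold change -3.04 ± 0.24, SE, n = 2 per arm, adjusted p = 0.00037). Klf2, a factor of circulating T cells, stood at 9.07 and 23.8 CPM against 85.2 and 121 CPM (-2.98 ± 0.31, adjusted p = 0.0022). Slamf6 (17.7 and 19.8 against 77.1 and 92.3 CPM, -2.15 ± 0.20, adjusted p = 0.00084) and Tcf7, a factor of less differentiated T cells (38.1 and 69.4 against 165 and 180 CPM, -1.83 ± 0.20, adjusted p = 0.0034), fell as well. The groups did not overlap for these 4 genes, which were picked as called and moving alike in both mice, so this adds no support. The Calca-negative arm held nearly all lung cells of a migrating-like cluster described below, led by Ccr7, S1pr1 and Klf2. In that cluster 1 of 186 cells held Calca. The contrast was not repeated within effector-like cells alone. Without Calca-positive replicate 1 the adjusted p was 0.050 for Klf2 and 0.055 for Tcf7, above the threshold.

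Higher in Calca-positive cells were Hdc, the enzyme that makes histamine (139 and 307 against 71.3 and 51.2 CPM, log2 fold change 1.72 ± 0.30, adjusted p = 0.049), Furin, a protease that cuts precursor proteins (484 and 620 against 296 and 248 CPM, 1.01 ± 0.17, adjusted p = 0.036), and Frmd4b (224 and 230 against 129 and 115 CPM, 0.91 ± 0.15, adjusted p = 0.036). These calls by edgeR were less firm than the lower ones. Genes of basophils and mast cells (Mcpt8, Fcer1a, Cpa3 and Ms4a2) also summed higher in Calca-positive cells, at 14.5 against 4.46 CPM in mouse 1 and 23.8 against 1.31 CPM in mouse 2, with 4 of 4 detected. These sums rest on 1 of 275 and 2 of 73 Calca-positive cells, and on 3 and 1 Calca-negative cells. Without the cells that held a UMI of a basophil, mast cell or myeloid marker (5 and 3 Calca-positive, 20 and 6 Calca-negative), a choice made after seeing the data, 7 genes besides Calca passed. All 7 were among the 31 and lower in Calca-positive cells, among them Ccr7, Klf2, Rflnb, Slamf6, Tcf7 and Txk. The adjusted p without these cells was 0.15 for Hdc, 0.069 for Furin and 0.057 for Frmd4b. Furin also missed the threshold without either Calca-positive replicate (0.079 and 0.093) or without Calca-negative replicate 2 (0.072), and Frmd4b without Calca-positive replicate 1 (0.37) or Calca-negative replicate 2 (0.053). Ccl3, singled out after its values were seen among the called genes, had 205 UMIs in 3 of 348 Calca-positive cells.

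Several sums of marker lists moved with Calca. Effector genes (Il1rl1, Cysltr1, Il2ra, Il5, Il13, Plac8, Adam8, Ccr8 and Areg) reached 5159 CPM in Calca-positive against 3032 CPM in Calca-negative cells of mouse 1 and 3070 against 1474 CPM in mouse 2. Genes of type 2 innate lymphoid cells (Arg1, Rora, Il1rl1, Klrg1, Il7r and Gata3), most of which Th2 cells also express, reached 2420 against 1779 CPM and 2230 against 1476 CPM, and the Th2 genes 2442 against 1935 CPM and 2134 against 1707 CPM. Myeloid genes (Lyz2, Csf1r, Cd68, Fcer1g and Itgam) summed to 11.3 against 2.71 CPM and 25.8 against 2.19 CPM, with 3 and 2 of the 5 detected in Calca-positive cells and Lyz2 at 0 in all 4 sums. All 32 Fcer1g UMIs of Calca-positive cells sat in 2 cells. The sums of these 4 lists were higher in Calca-positive cells of both mice, and no test was made of them. Of their genes, only Fcer1g was among those called one by one between Calca-positive and Calca-negative cells. The effector, innate lymphoid and Th2 lists share Il1rl1, and the innate lymphoid and Th2 lists share Gata3, so their sums are not separate observations. Proliferation genes (408 against 528 CPM and 597 against 697 CPM) and interferon-response genes (163 against 209 CPM and 220 against 334 CPM) were lower in both mice. With the mouse as a block, 360 genes passed, or 3.96% of those tested, and leaving out 1 sum gave 16 without Calca-positive replicate 1, 44 without replicate 2, 255 without Calca-negative replicate 1 and 90 without replicate 2.

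Calca was not called between lung cells with and without Il5 or Il13, cytokines of Th2 effector cells. Its level was 350 and 119 CPM in the 351 and 88 cells with a UMI of either cytokine and 293 and 142 CPM in the 731 and 328 cells with none. The direction differed between the mice (log2 fold change 0.16 ± 0.49, adjusted p = 0.96, edgeR). Lung cells without a full TCR held Calca as well, at 334 and 146 CPM in 523 and 208 cells, against 313 and 137 CPM in cells with a full TCR (-0.17 ± 0.46, adjusted p = 0.97, edgeR).

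T cells that share a TCR descend from 1 cell, so a clone found in both organs gives lung and MLN cells of 1 origin. In mouse 1, 105 clones had cells in both organs, and 44 of their 142 lung cells held Calca (31.0%, exact 95% interval 23.5 to 39.3%, 281 UMIs). Of their 186 MLN cells 0 held Calca, with an exact upper limit of 1.96%. In mouse 2, 21 such clones gave 5 of 32 lung cells (15.6%, 5.28 to 32.8%) against 0 of 22 MLN cells, with an exact upper limit of 15.4%. Within these clones Calca was thus seen on the lung side only in mouse 1 and in mouse 2, though with 22 MLN cells the limit in mouse 2 is close to the lung share. Since all first-run MLN cells together held Calca in 2 of 3216 cells, the 0 here adds no support to the organ difference given above. Among lung clones of 2 or more cells in mouse 1, 63 of 130 had no Calca-positive cell, 14 had only positive cells and 53 had both kinds. In mouse 2 these were 18, 2 and 10 of 30. Calca-positive cells were spread over 244 clones in mouse 1 and 71 in mouse 2, with at most 5 and 2 positive cells in 1 clone.

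Gal encodes galanin, a neuropeptide with inhibitory actions on many neurons (chromosome 19, 3409915 to 3414544, minus strand). It was not counted in either lung sample, where a floor of 3 counts corresponds to 0.354 and 1.08 CPM. None of the 8674 IL-4eGFP- cells held it. The first-run MLN samples held 18 and 37 UMIs (1.25 and 8.31 CPM), and the IL-4eGFP+ samples held 15 and 81 in medLN and 14 and 29 in MLN (1.58, 8.57, 1.53 and 2.74 CPM). The levels of medLN and both MLN groups overlapped. These UMIs came from very few cells: 5 cells of the first-run MLN held 55 UMIs, of which 1 cell held 36 and another 16. In the IL-4eGFP+ nodes 11 cells held 139 UMIs, 47 of them in 1 cell, and the top 3 cells held 70.5%.

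Cells with a UMI of Cxcr5, the receptor by which follicular helper T cells enter B cell follicles, held most of the Gal. In both runs Gal passed the filter on low counts only through these cells, so its p-values here are a description. In the first-run MLN there were 17 and 36 UMIs in 996 and 272 Cxcr5-positive cells against 1 and 1 in 1466 and 482 others (log2 fold change 5.52 ± 1.21, adjusted p = 0.037, edgeR), where 3.26% of 10095 genes passed. This call rests on 2 cells: without the cell with 36 UMIs Gal was too low to test, and the adjusted p exceeded 0.05 without Cxcr5-positive replicate 2 (0.054), without Cxcr5-negative replicate 1 (0.30) and without Cxcr5-negative replicate 2 (0.069). In the mice of the second run, 27 and 79 UMIs in 835 and 893 Cxcr5-positive cells stood against 2 and 31 in 3215 and 3131 others (3.58 ± 0.67, adjusted p = 0.0060, edgeR), where 18.2% of 11331 genes passed. Leaving out the cell with the most Gal gave 2.76 and an adjusted p of 0.018, and leaving out Cxcr5-positive replicate 2 gave 0.074. With DESeq2 the adjusted p of the second run was 0.15. Summed over the nodes, Gal was higher in Cxcr5-positive cells of both mice in each run, but the single samples of the second run were not all alike: in IL-4eGFP+ MLN 2 all 29 Gal UMIs sat in 1 Cxcr5-negative cell and 0 in the 475 Cxcr5-positive cells, and without Cxcr5-negative replicate 2 the fold change was 6.44.

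Penk encodes proenkephalin, the precursor of the enkephalins, which are opioid peptides (chromosome 4, 4133531 to 4138819, minus strand). It was counted at 13.9 and 3.23 CPM in lung and 1.87 and 3.59 CPM in MLN, so lung was 7.44-fold higher in mouse 1 (counting interval 4.86 to 11.8) and 0.898 of MLN in mouse 2 (0.350 to 2.16). The lung and MLN ranges overlapped. The fitted log2 fold change of 2.19 ± 0.57 dropped to 1.85 ± 0.52 without the cell with the most Penk, and it was 0.40 ± 0.74 without lung replicate 1 and 1.61 ± 0.60 without MLN replicate 1. In lung mouse 1 the 118 UMIs sat in 21 cells of 20 clones, 6 of which also held Calca, and in lung mouse 2 all 9 UMIs sat in 1 cell.

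Among the hashtag samples Penk was counted at 20.8 and 18.3 CPM in the IL-4eGFP+ medLN, 19.8 and 13.2 CPM in the IL-4eGFP+ MLN, 6.75 and 27.3 CPM in the IL-4eGFP- medLN and 5.72 and 7.89 CPM in the IL-4eGFP- MLN. Single cells decided these levels: 1 cell held 153 of 197 UMIs in IL-4eGFP+ medLN 1, and 1 cell held 155 of 205 UMIs in IL-4eGFP- medLN 2. Only 9 to 28 cells of a hashtag sample held any Penk. In the IL-4eGFP- nodes, cells with and without a UMI of Foxp3, the factor that defines regulatory T cells, were compared with both nodes of a mouse summed. Foxp3-positive cells (409 and 489 per mouse) held 24 and 210 UMIs, or 14.9 and 114 CPM, and the 4007 and 3769 others held 74 and 57, or 5.24 and 4.21 CPM. Penk was higher with Foxp3 in both mice (log2 fold change 3.65 ± 0.53, adjusted p = 0.00012, edgeR), where 27.7% of 10806 genes passed (30.1% with the mouse as a block). Without the top cell the change was 2.11 with an adjusted p of 6.8e-05, and without Foxp3-positive replicate 2 it was 1.48 with an adjusted p of 0.0061. The nodes differed in this: Foxp3-positive cells held 21 of 52 and 197 of 205 Penk UMIs in the medLN (40.4% and 96.1%), but 3 of 46 and 13 of 62 in the MLN (6.52% and 21.0%). In the MLN of mouse 1 the 3 UMIs in 189 Foxp3-positive cells stood against 43 in 2060 others, which is no excess. The difference between the nodes was not tested.

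In the IL-4eGFP+ nodes, Penk passed the filter on low counts only through the Cxcr5-negative cells, so its p-values for Cxcr5 are a description. It was lower in Cxcr5-positive cells, with 45 and 1 UMIs against 333 and 312 (log2 fold change -1.87 ± 0.56, adjusted p = 0.049, edgeR). That call was lost without the top cell (-1.47, adjusted p = 0.15), with DESeq2 (adjusted p = 0.78) and without a filter on low counts (adjusted p = 0.15), and the change was -6.45 without Cxcr5-positive replicate 1 and -0.80 without replicate 2. In the lung, the cells with Il5 or Il13 held 93 and 9 Penk UMIs against 25 and 0 in the others, with an adjusted p of 0.17 by edgeR and of 1.9e-15 with the mouse as a block. Cells with a full TCR held 13.9 and 3.23 CPM against 26.8 and 24.1 CPM in cells without one (adjusted p = 0.33, edgeR), and the block, under which 9.27% of the genes passed, gave 9.1e-07. Without the cell with the most Penk the change for a full TCR was -0.44 with an adjusted p of 0.91 (edgeR). That for Il5 or Il13 was then 2.57 with an adjusted p of 0.24 (edgeR). In both lung contrasts Penk passed the filter on low counts only through the arm where it was higher, so its p-values there are a description.

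Ramp1 (chromosome 1, 91179822 to 91225196, plus strand) is the partner that makes Calcrl a CGRP receptor. It was counted at 77.4 and 55.9 CPM in lung and 15.6 and 12.1 CPM in MLN of the same mice. Lung was 4.97-fold higher in mouse 1 (counting interval 4.27 to 5.81) and 4.61-fold in mouse 2 (3.36 to 6.41), with a fitted log2 fold change of 2.40 ± 0.21. The share of cells with a UMI was 22.6% and 15.9% in lung against 5.61% and 5.84% in MLN, and 9.83% and 8.09% against 3.24% and 2.83% at 2000 UMIs per cell.

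In the second run the IL-4eGFP+ medLN stood at 37.2 and 45.3 CPM and the IL-4eGFP+ MLN at 9.82 and 7.17 CPM, so medLN was 3.78-fold (2.99 to 4.83) and 6.31-fold (4.93 to 8.16) higher. The lung and its draining node were thus both above the MLN of their own mice. Among IL-4eGFP- cells the nodes overlapped, at 91.2 and 93.1 CPM in medLN and 101 and 90.2 CPM in MLN. As an order of group means, the IL-4eGFP- nodes (95.7 CPM in MLN and 92.2 CPM in medLN, with overlapping samples) came before lung (66.7), IL-4eGFP+ medLN (41.2), the first-run MLN (13.9) and IL-4eGFP+ MLN (8.50), and the other neighbours did not overlap.

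Within the lung, Ramp1 was higher in the cells with Il5 or Il13. It was counted at 150 and 135 CPM with either cytokine and at 37.8 and 29.3 CPM with none. Both mice showed this without overlap (log2 fold change 2.04 ± 0.19, n = 2 per arm, adjusted p = 0.0064, edgeR), and it passed in all 10 alternative settings run for this contrast, with adjusted p between 3.5e-54 and 0.0041. Ramp1 was the single gene of the 8 that passed there, where 0.451% of 9307 genes passed (0.183% higher and 0.269% lower). With the mouse as a block, 9.62% of the genes passed, and so did Ramp3, Nmur1, Vipr1, Vipr2 and Penk. Of these, Vipr1, Vipr2 and Penk passed the filter on low counts only through the arm where they were higher. Between lung cells with and without Calca the log2 fold change of Ramp1 was -0.15 (adjusted p = 0.99, edgeR), and it was found in 23.3% and 16.4% against 22.3% and 15.7% of cells.

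Other cells with Ramp1 were found along further contrasts. In the IL-4eGFP+ nodes Cxcr5-positive cells held 28.8 and 39.1 CPM against 22.5 and 21.3 CPM (log2 fold change 0.62 ± 0.14, adjusted p = 0.016, edgeR), a call lost without Cxcr5-positive replicate 2 (0.094) and with sums per hashtag sample (0.48). In the IL-4eGFP- nodes Foxp3-positive cells held 51.4 and 53.2 CPM against 101 and 96.9 CPM (-1.08 ± 0.10, adjusted p = 1.8e-06, edgeR), lower in both mice and in all 12 alternatives.

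Ramp3 (chromosome 11, 6658521 to 6677475, plus strand) pairs with Calcrl as an adrenomedullin receptor. It was counted at 108 and 68.1 CPM in lung and 41.0 and 35.3 CPM in MLN, a ratio of 2.65 (2.38 to 2.94) and 1.93 (1.56 to 2.40) and a fitted log2 fold change of 1.38 ± 0.22. The shares of cells were 34.9% and 28.6% against 19.3% and 17.1%, and 16.8% and 11.5% against 8.54% and 6.86% at equal depth. Among the hashtag samples, IL-4eGFP+ cells held 22.7 and 32.5 CPM in medLN and 29.6 and 26.2 CPM in MLN, and IL-4eGFP- cells 11.3, 9.44, 9.70 and 9.29 CPM. Ramp3 thus had the opposite gate order to Ramp1: IL-4eGFP+ over IL-4eGFP- ratios were 2.01 and 3.44 in medLN and 3.05 and 2.82 in MLN for Ramp3, but 0.407 and 0.486 in medLN and 0.0970 and 0.0795 in MLN for Ramp1. Among IL-4eGFP- cells, the Foxp3-positive ones held 8 and 4 UMIs of Ramp3 against 157 and 140 in the others (-1.78 ± 0.34, adjusted p = 0.0014, edgeR, and called in all 12 alternatives). In lung cells with Il5 or Il13 it stood at 81.8 and 46.8 CPM against 123 and 75.3 CPM (adjusted p = 0.65, edgeR, and 2.6e-05 with the mouse as a block).

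Calcrl, the receptor protein that both partners need, was counted at 51.6 and 48.0 CPM in lung and 17.1 and 15.7 CPM in MLN (fitted log2 fold change 1.74 ± 0.15), given without a test like the 8 genes. Of single cells, 170 of 1082 (15.7%) in lung mouse 1 and 39 of 416 (9.38%) in lung mouse 2 held a UMI of Calcrl together with one of Ramp1 or Ramp3, against 2.07% and 1.72% in MLN. In lung these were mostly Calcrl with Ramp3 alone (104 and 26 cells), then with Ramp1 alone (47 and 9) and with both (19 and 4). In the second run the joint share was 0.848 to 1.90% of IL-4eGFP+ and 1.48 to 3.20% of IL-4eGFP- cells. Joint shares depend on depth, which was higher in lung, and were not thinned. They also rise with the shares of the single genes: Calcrl, with or without a partner, was found in 27.9% and 22.6% of lung and 8.41% and 7.43% of MLN cells. Whether the genes met in a cell more often than their single shares give was not tested. Ramp2 gave 12 and 1 UMIs in lung and 25 and 4 in MLN. The ligands were nearly absent from these cells apart from Calca: Calcb, which encodes the second form of CGRP, gave 1 UMI in each of 2 IL-4eGFP- samples and none elsewhere, and Adm, which encodes adrenomedullin, gave 13 UMIs in lung mouse 1, 0 in lung mouse 2 and at most 4 in any other sample.

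Nmur1 (chromosome 1, 86386303 to 86426228, minus strand) encodes the receptor of neuromedin U, known for activating type 2 innate lymphoid cells. It was counted at 28.6 and 11.8 CPM in lung and 9.07 and 7.19 CPM in MLN, a ratio of 3.16 (2.54 to 3.94) and 1.65 (0.981 to 2.76) and a fitted log2 fold change of 1.55 ± 0.36, which was 0.55 without lung replicate 1. The shares were 15.5% and 6.73% of lung cells against 2.97% and 2.25% of MLN cells, and 5.34% and 1.72% against 1.45% and 0.404% at equal depth. In the IL-4eGFP+ nodes it stood at 5.28 and 4.97 CPM in medLN and at 10.8 and 22.7 CPM in MLN, so medLN was 0.489 and 0.219 of MLN. For Nmur1, then, the MLN was above the medLN, the reverse of Ramp1. The IL-4eGFP- samples held 0, 1, 1 and 0 UMIs. IL-4eGFP+ cells were at least 13.6-fold and 37.4-fold (counting interval 6.39 to 1507) higher in medLN, and 86.9-fold (15.2 to 3466) and at least 59.3-fold higher in MLN. The other receptor of the peptide, Nmur2, and the ligands Nmu and Nms gave no UMI in any sample.

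Nmur1 was nearly absent from Cxcr5-positive cells. In both runs it passed the filter on low counts only through the other cells, so its p-values here are a description. In the first-run MLN it had 1 and 0 UMIs in Cxcr5-positive cells against 130 and 32 in the others (log2 fold change -6.55 ± 0.57, adjusted p = 0.00018, edgeR, and called in all 10 alternatives). In the IL-4eGFP+ nodes the UMIs were 2 and 4 against 147 and 283 (-4.21 ± 0.58, adjusted p = 0.0012, edgeR, and called in all 12 alternatives). Cells with Ccr9, the receptor that directs T cells to the small intestine, held it far more often. In the first-run MLN 16.8% and 9.71% of Ccr9-positive cells had a Nmur1 UMI against 1.19% and 1.08% of the others, at median depths of 5956 against 4888 and 6047 against 4852 UMIs. In the IL-4eGFP+ MLN these shares were 13% and 22.0% against 1.71% and 2.45%, and in the IL-4eGFP+ medLN 4.17% and 7.32% against 1.44% and 1.47%. In lung they were 26.8% and 7.89% against 13.8% and 6.61%. The share was higher with Ccr9 in all 8 samples, but the gap was small in lung mouse 2. These shares were not tested.

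In lung, Nmur1 stood at 49.4 and 27.7 CPM in Calca-positive against 21.3 and 8.31 CPM in Calca-negative cells. The difference was in the same direction in both mice without reaching the threshold (log2 fold change 1.41 ± 0.39, adjusted p = 0.34, edgeR), and with the mouse as a block it was 1.31 with an adjusted p of 1.5e-05. It also passed when Calca-negative replicate 1 (1.0e-07) or 2 (0.042) was left out. Calcrl behaved alike, at 63.9 and 83.2 CPM against 47.3 and 40.3 CPM (0.69, adjusted p = 0.29, and 0.62 with an adjusted p of 0.012 with the block). Of the 8 genes, 5 could be tested in this contrast, and 0 passed by edgeR without the block, with 1 (Nmur1) at an unadjusted p under 0.05, and 0 by DESeq2. With the block Penk passed as well (-1.44, adjusted p = 0.027, against 0.92 without it). In cells with Il5 or Il13, Nmur1 stood at 40.9 and 19.8 CPM against 21.9 and 9.12 CPM (adjusted p = 0.53, edgeR, and 0.00042 with the block).

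**Figure D3:**
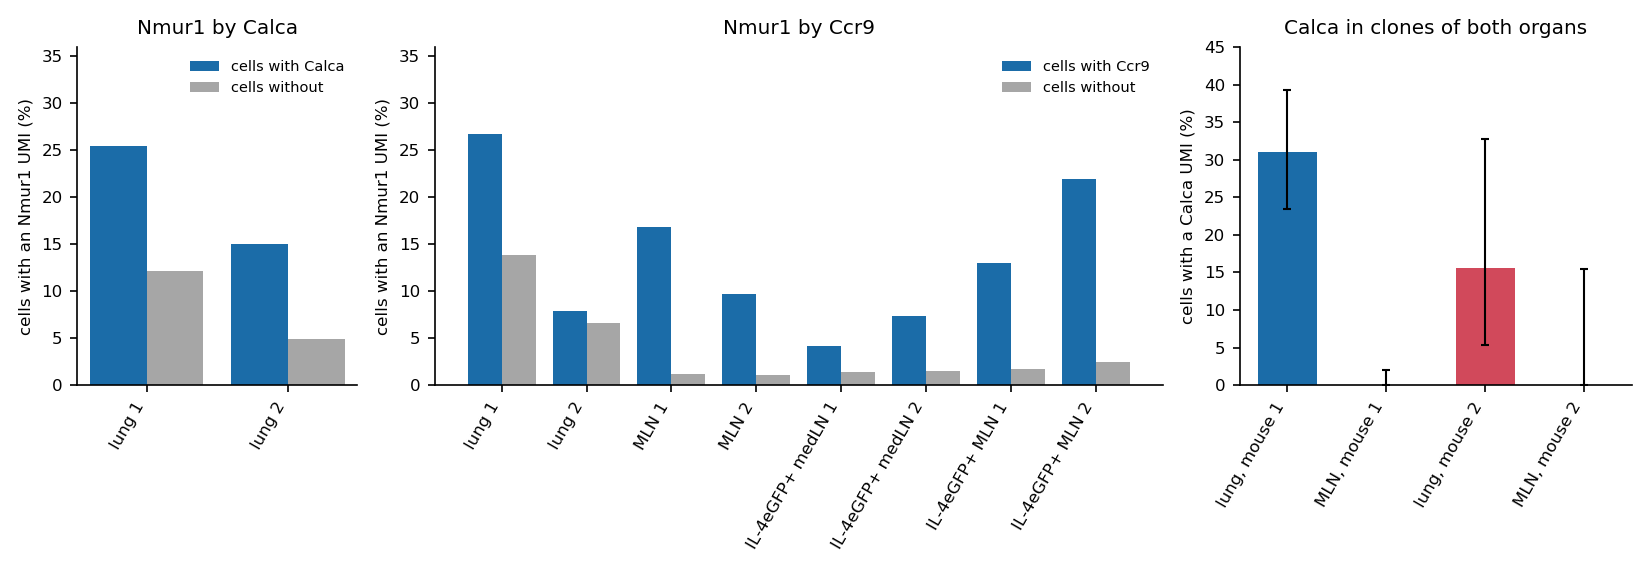
Share of cells (%) with a Nmur1 UMI in lung cells with and without Calca, and in cells with and without Ccr9 in the 8 IL-4eGFP+ samples, both without intervals, and share of cells with a Calca UMI among lung and MLN cells of clones found in both organs, with exact 95% intervals. Nmur1 was found in 25.5% and 15.1% of Calca-positive against 12.1% and 4.96% of Calca-negative lung cells, and Calca in 31.0% and 15.6% of the lung cells of shared clones against 0 in their MLN cells.

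Vipr1 (chromosome 9, 121642716 to 121672954, plus strand) and Vipr2 (chromosome 12, 116077726 to 116146261, plus strand) encode both receptors for VIP and for PACAP, and Vipr1 is known from resting T cells. Vipr1 was counted at 3.65 and 10.0 CPM in lung and 4.78 and 4.04 CPM in MLN. The mice went opposite ways, with a lung to MLN ratio of 0.765 (0.484 to 1.18) in mouse 1 and 2.48 (1.33 to 4.77) in mouse 2. In the second run it stood at 7.07 and 5.82 CPM in IL-4eGFP+ medLN, 3.27 and 2.64 CPM in IL-4eGFP+ MLN, 21.7 and 20.5 CPM in IL-4eGFP- medLN and 20.3 and 19.3 CPM in IL-4eGFP- MLN. The IL-4eGFP- samples were above all IL-4eGFP+ samples, and medLN was above MLN among IL-4eGFP+ cells of both mice by 2.16-fold and 2.20-fold.

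Among IL-4eGFP- cells, those with Foxp3 held 3 and 6 Vipr1 UMIs against 327 and 300 in the others, or 1.86 and 3.26 CPM against 23.1 and 22.2 CPM. Vipr1 was lower with Foxp3 in both mice (log2 fold change -3.27 ± 0.29, adjusted p = 9.9e-07, edgeR, and called in all 12 alternatives). In the IL-4eGFP+ nodes it stood at 2.47 and 2.56 CPM in Cxcr5-positive against 5.87 and 4.57 CPM in other cells (-1.07 ± 0.30, adjusted p = 0.039, edgeR), called in 5 of 12 alternatives and lost without either Cxcr5-positive replicate (0.14 and 0.12) or without Cxcr5-negative replicate 1 (0.20). In lung cells with Il5 or Il13 it had 3 and 1 UMIs against 28 and 27 (adjusted p = 0.23, edgeR, and 0.00068 with the block). There it passed the filter on low counts only through the cells with neither cytokine, so these p-values are a description.

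Vipr2 was low in every sample. It gave 33 and 7 UMIs in lung (3.89 and 2.51 CPM), 24 and 13 in MLN (1.66 and 2.92 CPM), 10, 13, 13 and 20 in the IL-4eGFP+ samples and 1, 1, 0 and 1 in the IL-4eGFP- samples. Lung and MLN overlapped, with ratios of 2.34 (1.34 to 4.14) and 0.859 (0.290 to 2.32). IL-4eGFP+ samples, at 1.06 to 1.89 CPM, were all above the IL-4eGFP- samples, at 0 to 0.133 CPM, the reverse of Vipr1. With Il5 or Il13 there were 21 and 5 UMIs in lung against 12 and 2 (adjusted p = 0.25, edgeR, and 0.0063 with the block). There Vipr2 passed the filter on low counts only through the cells with either cytokine, so these p-values are a description. With Cxcr5 in the IL-4eGFP+ nodes the log2 fold change was 1.07 (adjusted p = 0.13, edgeR). The ligands Vip and Adcyap1 gave no UMI, and the PACAP receptor Adcyap1r1 gave 1 UMI over all samples.

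Counted over the contrasts, 0 of the 7 genes tested passed by edgeR for a full TCR in lung, where 2.85% of 9503 genes passed. At an unadjusted p under 0.05 there was 1, Penk, and by DESeq2 there were 0. For Il5 or Il13 in lung 1 of 7 tested passed (Ramp1), against 0.451% of all genes, and for Calca 0 of 5, against 0.352%. For Cxcr5 in the first-run MLN 2 of 6 tested passed (Nmur1 and Gal), where 3.26% of all genes did. For Cxcr5 in the IL-4eGFP+ nodes 5 of 7 tested passed (Nmur1, Gal, Ramp1, Vipr1 and Penk), where 18.2% of all genes did, and for Foxp3 4 of 4 (Vipr1, Ramp1, Ramp3 and Penk), where 27.7% did. All these fits leave out the pairing of the arms by mouse. With the mouse as a block, Ramp3, Nmur1, Vipr1, Vipr2 and Penk also passed for Il5 or Il13, where 9.62% of genes did. Nmur1 and Penk then passed for Calca, where 3.96% did, and Penk for a full TCR, where 9.27% did. These counts cover only the genes high enough to be tested. The filter keeps a gene that is high in 1 arm alone, and Gal and Nmur1 passed it in that way for Cxcr5 in both runs. Penk also passed it only through its higher arm for Cxcr5 in the IL-4eGFP+ nodes and for a full TCR. The same holds for Vipr1, Vipr2 and Penk for Il5 or Il13, also with the block. The p-values of these genes there are a description too. The counts beside the shares of all genes are therefore a description. In the full TCR contrast the called genes themselves depended on other cells: without the cells that held a basophil, mast cell or myeloid marker, 0 of 9253 genes passed by edgeR, with 393 at an unadjusted p under 0.05.

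The TCR-bearing cells of the first run formed 12 clusters, made without the 8 genes and the other neuro-immune genes, so their levels by cluster are a description. The lung effector-like cluster (1140 cells, 1137 of them from lung) held 94.3% of all Calca UMIs at 368 CPM, 65.7% of the Ramp1 UMIs at 92.1 CPM and 59.7% of the Nmur1 UMIs at 33.7 CPM. Calca was found in 27.8% of its cells, Ramp1 in 24.2%, Nmur1 in 16.0% and Calcrl in 28.3%. The lung migrating-like cluster (186 cells), led by Ccr7, S1pr1 and Klf2, held Calca in 1 cell and Nmur1 in 1 cell, but Ramp3 in 45.2% (151 CPM) and Vipr1 in 9.68% (18.0 CPM). Both lung clusters therefore held Ramp3, and Calca and Nmur1 came almost wholly from the effector-like one. Calca was also found in 10.3% of the 290 proliferating-like cells, which had a median of 14505 UMIs, at 38.2 CPM. Of these cells 144 came from lung and 146 from MLN, and all first-run MLN cells together held Calca in 2 cells. The share is therefore not comparable with those of the lung clusters.

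In MLN, the effector-like cluster (238 cells), led by Deptor, Ccr9 and St3gal6, had Nmur1 in 32.4% of cells and 31.0% of all Nmur1 UMIs. It held 1 Calca UMI and 1 Ramp1 UMI, and it held Ramp3 in 21.8% of cells at 48.3 CPM and Calcrl in 10.1% at 21.8 CPM, against 32.1% at 106 CPM and 28.3% at 59.5 CPM in the lung effector-like cluster. The follicular helper-like cluster (196 cells) held 96.4% of the Gal UMIs, in 3 cells, and Ramp1 in 17.9% of cells at 62.4 CPM. The MLN migrating-like cluster (207 cells) had the highest Vipr1 of all clusters, 28.9 CPM in 13.5% of cells. The innate-like cluster (89 cells), led by Ccl5, Zbtb16 and Xcl1, had the highest Ramp1, 159 CPM in 38.2% of cells, with Calcrl at 2.37 CPM. Penk in a cluster led by Il2 and Tnfrsf9 (138 cells) was 44 UMIs in 3 cells. Resolutions of 0.5 and 1.2 left 94.3% of the Calca UMIs in lung effector-like cells. At 1.2 these cells split into clusters of 660 and 476 cells. Both had Calca in 27.9% of cells, but Ramp1 was found in 37.7% and 5.67%.

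**Figure D4:**
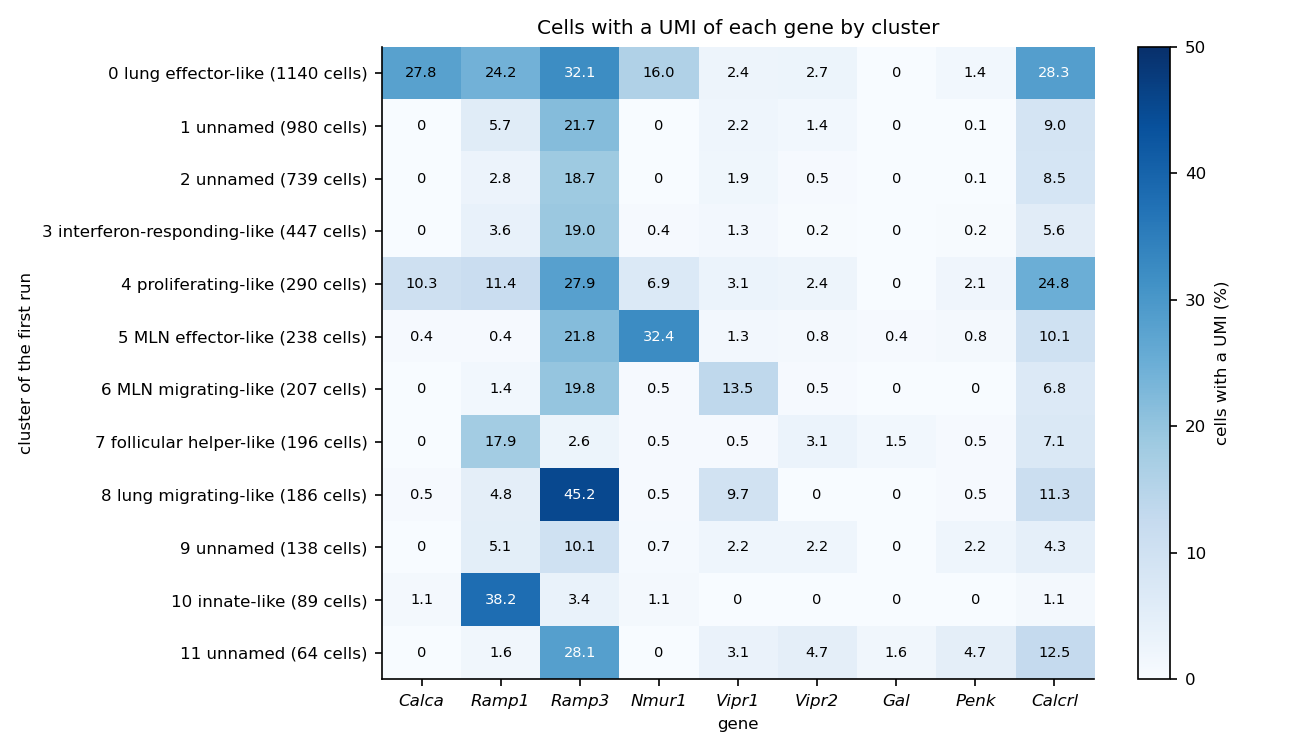
Percentage of cells with at least 1 UMI (colour and number) of the 8 genes and Calcrl in the 12 clusters of first-run cells. Calca, Nmur1, Ramp1 and Calcrl were each found in the lung effector-like cluster (27.8%, 16.0%, 24.2% and 28.3%), though not necessarily in the same cells. Nmur1 alone of the 4 was high in the MLN effector-like cluster (32.4%), and Ramp1 was highest in the innate-like cluster (38.2%).

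The wider neuro-immune background was read from 14 lists with 185 further genes of neuropeptide, transmitter and cAMP pathways, chosen with earlier results in view, so the tests of these genes between lung and MLN are not independent of that choice. Only 56 could be tested between lung and MLN, and 17 were higher and 8 lower in lung by edgeR, where 31% of all 10588 genes passed. Their median log2 fold change was 0.25, against -0.01 over all genes tested. Of 36 cAMP genes, 32 were tested and 8 rose and 3 fell. Of 23 peptide processing genes, 10 were tested and 3 rose and 1 fell. Of the dopamine, serotonin and histamine list 2 rose and 2 fell of 4 tested, and of the GABA, glutamate and cannabinoid list 2 rose and 2 fell of 5 tested. The CGRP receptor list had 1 riser of 2 tested, and the neuromedin and opioid lists none of 1 tested each. The other CGRP family ligands, VIP and PACAP, galanin receptor, tachykinin, cholinergic and other neuropeptide lists had no gene high enough to test.

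Among the called list genes at 5 CPM or more, Sik1, Crem, Furin and Hdc had the largest fold changes, while the cAMP list as a whole had a median log2 fold change of 0.26. Sik1, a kinase induced by cAMP, was counted at 61.2 and 45.9 CPM in lung against 1.52 and 1.80 CPM in MLN (log2 fold change 5.23 ± 0.26, adjusted p = 1.3e-06, edgeR), and Crem, a cAMP-responsive transcription factor, at 202 and 101 against 6.16 and 7.86 CPM (4.68 ± 0.36, adjusted p = 1.5e-05). The phosphodiesterases Pde4a (19.3 and 19 against 1.73 and 2.69 CPM) and Pde4d (47.3 and 24.4 against 12.2 and 8.08 CPM), which break down cAMP, rose by 3.39 and 1.98. Furin rose from 19 and 19.5 to 345 and 315 CPM (4.24 ± 0.15, adjusted p = 2.4e-07, edgeR). Pcsk1, a convertase of secretory granules, rose from 1.59 and 0 to 9.07 and 9.68 CPM (3.16 ± 0.54, adjusted p = 0.0021, edgeR). The Pcsk1 call was lost with DESeq2 (adjusted p = 0.18), and MLN mouse 2 held 0 UMIs. Cpd, a carboxypeptidase, rose from 2.98 and 4.27 to 21.9 and 18.6 CPM (2.75, adjusted p = 5.0e-05, edgeR). Hdc rose from 7.62 and 0.674 to 88.9 and 97.5 CPM (4.21 ± 0.40, adjusted p = 5.7e-05). Dpp4, a peptidase that cuts neuropeptides, fell from 63.3 and 56.8 to 27.8 and 40.5 CPM (-0.74, adjusted p = 0.0054).

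The remaining named list genes changed by less than 1 on the log2 scale: Gabbr1 (0.76), Prkar2a (0.63), Arrb2 (0.55) and Pde4b (0.48) rose and Prkacb (-0.55) and Pde3b (-0.47) fell, with adjusted p between 0.0051 and 0.048 by edgeR. Several of these calls depended on a single library. Prkar2a lost its call without lung replicate 1 or without either MLN replicate, Pde3b without lung replicate 2 or either MLN replicate, Pde4b without lung replicate 1 or either MLN replicate, Gabbr1 without lung replicate 1 or MLN replicate 1, Prkacb without MLN replicate 1 and Arrb2 without MLN replicate 2.

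Across the 12 samples, the genes whose level ran most like each of the 8 were ranked by Pearson's r of log2(CPM + 1) over 9111 genes, as a description, since the samples share mice, runs and libraries. For Calca these were Hilpda (0.995), Fosl2 (0.993) and Ifrd1 (0.985), and for Ramp3 Cotl1 (0.990), Ubash3b (0.988) and Rtf2 (0.982). For Nmur1 they were 1700061F12Rik (0.990), Lgmn (0.987) and Gm2a (0.979), and for Vipr1 Adcy6 (0.973), S1pr1 (0.972) and Stk38 (0.965). Ramp1 was closest to D630039A03Rik (0.926), Rapgef6 (0.917) and Arl4c (0.913), and Vipr2 to Atp9b (0.981), Plekhb2 (0.977) and Ech1 (0.975). The neighbours of Gal (Tnrc6a 0.926, Egr2 0.921, A630001G21Rik 0.909) were about as close as those of Ramp1. Those of Penk (Col4a3bp 0.892, Hipk2 0.884, Sfpq 0.868) were the weakest. The levels of Gal and Penk rest on few cells. Calca was at most 1.04 CPM outside the lung, so its r rests mainly on the 2 lung samples.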

How the data were processed

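The deposited gene expression files hold raw UMI counts, one value for each gene in each cell barcode. The authors obtained them with Cell Ranger 3.0.1 (mkfastq 2.1.1, mm10) for lung and MLN and with Cell Ranger 6.1.2 for medLN and MLN. In the first run both sequencing runs of a library were combined and barcodes called cells were deposited. The TCR files hold deposited counts of UMIs per contig. Whether reads were thinned when the second run's gates were aggregated is not given in the sources used here. Of 1689, 656, 3013 and 961 barcodes (lung 1, lung 2, MLN 1, MLN 2), 1605, 624, 2810 and 899 had over 500 UMIs, over 500 genes, under 7% mitochondrial UMIs and a novelty above 0.8, as in the study's methods, and 1082, 416, 2462 and 754 also had a productive TCRα and TCRβ contig. In the second run, 9382 of 9603 IL-4eGFP+ and 10024 of 10080 IL-4eGFP- barcodes passed, and HTODemux called 16748 with 1 hashtag, 2536 doublets and 122 negatives. Summed UMIs, with TCR genes left out, were 2789854 to 14442133 per first-run sample and 7519127 to 10593688 per hashtag sample.

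Counts were summed per sample and arm, since cells are not replicates, and compared with edgeR 4.0.16 by its quasi-likelihood test (R 4.3.3, filterByExpr, TMM, Benjamini-Hochberg over all genes tested, threshold 0.05, TCR genes left out), with 2 mice per arm and second-run nodes summed per mouse. Samples of 1 mouse come from the same animal, so they pair. The correlation of their deviations from the arm means was 0.0377 to 0.332 over the 7 contrasts. The test was checked on simulated data of the same size: of 200 genes changed by a log2 of 1, 138 to 184 were found, and of 200 changed by 2, 199 to 200, with 3 to 12 false calls. The changed genes were drawn from the better counted ones, with 1 spread shared by all genes and no effect of the mouse. These figures therefore do not extend to genes with low counts or UMIs in few cells, such as Gal, Penk and Vipr2. Alternatives were the mouse as a block, DESeq2 1.42.0, its size factors in edgeR, no filter on low counts, each sum left out, doublets left out, other hashtag calls, and the cells with basophil, mast cell or myeloid markers or the top Penk or Gal cell left out, the last 3 chosen after seeing the data. Scrublet in scanpy 1.11.5 marked 0 to 12 cells per library and so has not worked, and doublets were kept otherwise. Clusters were made with Seurat 5.3.0 (1979 of 2000 variable genes, 15 principal components, resolution 0.8) and named from markers, part of which the study took from these libraries. A clone shared V and J segments and CDR3 nucleotides of all productive chains. Intervals are exact Clopper-Pearson or Poisson intervals (scipy 1.17.1).

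The 8 genes, the gene lists, the contrasts and the markers were chosen with earlier results of these data known. Named were all 8 genes, 10 receptor partners and ligands, up to 20 list genes called between lung and MLN at 5 CPM or more, and, between lung cells with and without Calca, up to 8 rising and 4 falling called genes at 50 CPM or more that moved alike in both mice. Other genes named were chosen after their values were seen, as stated. 1 gene list, some other list genes and 1 planned contrast are not reported here.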

Additional observations from a re-analysis of the deposited data

Results flagged for a closer look

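Penk in the IL-4eGFP- medLN sample of mouse 2, at 27.3 CPM, lay farther from the other 3 IL-4eGFP- hashtag samples (5.72 to 7.89 CPM) than Dixon's 95% critical value for 4 samples allows, and 1 cell with 155 of its 205 UMIs held most of this level. Vipr2 in the IL-4eGFP- MLN sample of mouse 1 was flagged the same way at 0 CPM, where the other 3 samples held 1 UMI each, so the gap is 1 molecule. Chance flags about 1 in 20 groups.

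For Vipr2, the medLN minus MLN difference was -0.363 and -0.513 CPM in IL-4eGFP+ cells of both mice and 0.130 and 0.00572 CPM in IL-4eGFP- cells, so the signs were opposite in every mouse. The difference between the gates was not tested, and the IL-4eGFP- values rest on at most 1 UMI per sample.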

How the results depend on the processing

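Leaving aside the settings that drop 1 sum, 36 of the counts of called genes stayed within 1.5 times the value reported and 18 moved further. With DESeq2 the counts were 1833 between lung and MLN, 70 for Il5 or Il13, 181 and 1116 for Cxcr5 in the first-run MLN and the IL-4eGFP+ nodes and 1797 for Foxp3. Without a filter on low counts they were 623 for a full TCR, 378 for Il5 or Il13, 225 for Calca and 590 for Cxcr5 in MLN. Leaving out called doublets and cells with extra TCR chains gave 91 for Il5 or Il13. Leaving out cells with basophil, mast cell or myeloid markers gave 0 for a full TCR, 78 for Il5 or Il13 and 8 for Calca. With the mouse as a replicate block the counts were 881 for a full TCR, 895 for Il5 or Il13, 360 for Calca, 1230 for Cxcr5 in MLN and 3095 for Cxcr5 in the IL-4eGFP+ nodes, 3886 between lung and MLN and 3254 for Foxp3. Among the 8 genes and Calcrl the block changed the calls given beside their values and no other. The cause of these moves was not tested.

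Leaving out 1 sum at a time gave 1907 to 3678 called genes between lung and MLN, 239 to 421 for a full TCR, 77 to 258 for Il5 or Il13, 16 to 255 for Calca, 197 to 436 and 1403 to 2081 for Cxcr5 in MLN and the IL-4eGFP+ nodes, 2309 to 2425 for Foxp3, and 18 to 28 called list genes between lung and MLN against 25. A lone sum was assumed to vary like the other arm. In lung cells with Il5 or Il13, Penk, Nmur1, Ramp3 and Vipr1 gained a call without 1 or more of the sums, as did Penk for a full TCR and Penk, Ramp3 and Calcrl for Calca. Vipr1 between lung and MLN ranged from -0.0940 without lung replicate 2, a reversal, to 1.21 without lung replicate 1. In the other settings 449 of the fold changes of single genes kept their direction and call, 16 gained and 27 lost a call and 1 moved. Of the shares of cells, 59 of 320 moved, 57 of them by thinning. Gal, Vipr2 and Calca outside the lung rest on few molecules, which limits their precision.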

Other observations

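Other genes of the neuro-immune lists were compared along Foxp3 and Cxcr5 in the second run. In IL-4eGFP- cells with Foxp3, 7 of the 55 list genes tested were higher and 10 lower by edgeR, where 27.7% of all 10806 genes passed (15.6% higher and 12.1% lower), so the share of list genes called was near that of all genes. Their median log2 fold change was 0.04, against -0.01 over all genes tested. Pde3b, which breaks down cAMP, stood at 4.34 and 4.34 CPM against 69.3 and 71.2 CPM (log2 fold change -4.17 ± 0.19, adjusted p = 1.9e-09). Rapgef4, a cAMP sensor, stood at 3.10 and 2.17 against 14.6 and 11.5 CPM (-2.47 ± 0.36, adjusted p = 0.00014), and Adcy6, an enzyme that makes cAMP, at 4.34 and 3.8 against 12.6 and 11.3 CPM (-1.72 ± 0.30, adjusted p = 0.00059). Higher with Foxp3 were Nmb, which encodes neuromedin B, at 24.2 and 20.6 against 7.85 and 7.91 CPM (1.34 ± 0.20, adjusted p = 0.00016), and Cpd, at 6.20 and 7.06 against 1.13 and 0.739 CPM (2.64 ± 0.45, adjusted p = 0.00049). All 5 passed in every alternative run for this contrast, and these genes were chosen after their values were seen.

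In IL-4eGFP+ cells with Cxcr5, 4 of 61 list genes tested were higher and 4 lower by edgeR, a smaller share than the 18.2% of all 11331 genes that passed (7.62% higher and 10.6% lower). Pde3b was higher here, at 110 and 109 against 61.2 and 67.4 CPM (0.74 ± 0.07, adjusted p = 0.00019), and Cpd lower, at 7.96 and 4.88 against 19.9 and 18.8 CPM (-1.64 ± 0.19, adjusted p = 0.00053), both in every alternative run for this contrast.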
